A study of Mus musculus with 16 samples.

Results

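Gm16685, Neat1, Malat1, Gas5 and Mir22hg are 5 long noncoding RNA genes of the mouse, taken from the 56941 genes counted in mGF, murine gingival fibroblasts, which build the connective tissue of the gum. They were found in the count table by their symbols. Gm16685 was chosen by its measured rise over the BSA control, so its levels against BSA are given as a description, with no test. The other 4 were chosen as RNAs to set beside it, and are called abundant here by comparison with other long noncoding RNAs. All 5 passed the filter on low counts, as did 16306 genes in total.

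The mGF came from explants of the gingiva around the maxillary second molar of WT C57Bl6 mice aged 3 to 6 months, and were used between passages 2 and 8. Cells were kept for 24 h in 200 μM BSA (the albumin vehicle, control), in 200 μM palmitate carried on BSA, in 1 ng/mL mouse recombinant IL-1β, or in palmitate + IL-1β at these doses, with 4 libraries per condition. The paper describes BSA with or without IL-1β, so the cells with IL-1β alone probably had the vehicle too. Palmitate is a saturated fatty acid used to model metabolic stress, and IL-1β is a cytokine that activates NF-kB in fibroblasts. All cells were grown with fetal bovine serum, and no group carries a genetic change. The sources used here do not say whether the libraries of a condition came from separate mice or cultures, so p-values measure the spread between these libraries, which may be technical. The cells are a culture of explant outgrowth, and their labelled type was checked by markers. Collagen gene Col1a1 stood between 13200 and 15600 CPM, counts scaled to library size, in every library, while the leukocyte marker Adgre1 reached at most 3 counts in any of them. Of the 11 fibroblast markers, Lum (0.7 to 2.26 CPM) and S100a4 (1.37 to 3.04 CPM) were low. The 6 pericyte or smooth muscle markers summed to 199 to 220 CPM in BSA and 190 to 222 CPM in IL-1β. In palmitate and palmitate + IL-1β these sums were 182 to 196 and 171 to 195 CPM. Summed over 14 leukocyte markers, the level ran from 4.39 to 6.36 CPM in BSA, from 5.28 to 5.62 CPM in IL-1β, from 5.80 to 7.72 CPM in palmitate and from 6.00 to 8.14 CPM in palmitate + IL-1β, and 5 of the 14 had no more than 3 counts in any library.

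Long noncoding RNAs are transcribed like messenger RNAs, and many are spliced, but they code for no known protein. Many act where they are made, in the nucleus. Neat1 is the scaffold of paraspeckles, nuclear bodies that enlarge in many stress states, and Malat1 gathers in the neighbouring nuclear speckles, where splicing factors are stored. Gas5 and Mir22hg are host genes, whose introns or exons give rise to small nucleolar RNAs (snoRNAs) and to the microRNA miR-22. Gm16685 is named here by its database symbol and is listed below with RNAs of inflammation. In bulk RNA, fewer cells of a type and less RNA per cell cannot be told apart.

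Gm16685 (ENSMUSG00000097804) lies on the plus strand of chromosome 3, at chr3:7641280-7814826 in GRCm39 (GENCODE vM39). It is annotated as a lncRNA with 18 transcripts. Its lowest-numbered transcript has 3 exons that add up to 1593 bases, and it begins 1061 bases inside Il7, the gene of the lymphocyte growth factor interleukin-7, which lies on the opposite strand at chr3:7635054-7678825. Of that transcript, 106 bases (6.65%) are antisense to exons of Il7, and over all transcripts 662 of 5521 exon bases are. An internal exon at chr3:7728677-7728828 lies beyond Il7 and belongs to 12 of the 18 transcripts. It is printed here in full, in lower case, because most annotated forms of this RNA hold it and because no exon of Il7 reaches it.
Gm16685 exon: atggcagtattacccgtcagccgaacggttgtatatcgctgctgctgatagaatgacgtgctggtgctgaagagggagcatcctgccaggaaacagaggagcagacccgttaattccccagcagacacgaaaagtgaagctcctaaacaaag

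The other 4 genes were placed in the same way. Neat1 (chr19:5874736-5897132) and Malat1 (chr19:5845717-5853602) are neighbours on the minus strand of chromosome 19. Gas5 lies on the plus strand of chromosome 1 (chr1:160861793-160866118), with 134 exon bases antisense to exons of Zbtb37. Mir22hg lies on the plus strand of chromosome 11 (chr11:75352365-75357502) and shares 206 exon bases with Tlcd2 on the same strand. The microRNA that Mir22hg gives has a mature form from each arm of its hairpin, both printed from RefSeq (GRCm38.p6) with the seed, bases 2 to 8, in capitals. They show what the host transcript is processed into, and neither mature form was measured here.
mmu-miR-22-5p: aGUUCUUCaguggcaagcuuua
mmu-miR-22-3p: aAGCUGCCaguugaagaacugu

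The depth of the 16 libraries ran from 21234789 to 92752515 counts on genes, where all but 1 library (palmitate 10, the deepest) held at most 35329711. A count of 0 allowed a level of up to 0.0331 to 0.146 CPM, from 3 counts, and covers counting error only. The paper's methods describe oligo(dT) priming while the labels describe a stranded kit for total RNA. The difference matters for Malat1 and for the long form of Neat1, which end in a triple helix instead of a standard poly(A) tail. Over all genes, 53.1% of the calls in palmitate against BSA were rises, and 37.1% when upper-quartile normalization replaced TMM. The same shares were 67.1% and 43.5% for IL-1β and 52.4% and 38.7% for palmitate + IL-1β.

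Gm16685 was close to silent in BSA, low in IL-1β and abundant in both conditions with palmitate. In the 4 BSA libraries it had 38, 36, 28 and 28 counts, or 1.12, 1.16, 1.07 and 0.979 CPM. With IL-1β it stood at 8.02, 6.05, 7.44 and 7.66 CPM. With palmitate it reached 38.7, 39.6, 36.9 and 35.2 CPM, and with palmitate + IL-1β 43.3, 46.3, 44.6 and 49.4 CPM. The 4 conditions formed 4 separate ranges, in the order BSA, IL-1β, palmitate and palmitate + IL-1β, and no library of one fell within another. The condition means were 1.08 ± 0.0801, 7.29 ± 0.862, 37.6 ± 1.96 and 45.9 ± 2.63 CPM (SD, n = 4 each).

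The comparisons with BSA share the same 4 BSA libraries. Against BSA, the values that chose the gene, the fitted log2 fold changes were 5.11 ± 0.10 (SE) with palmitate, 2.74 ± 0.12 with IL-1β and 5.39 ± 0.09 with palmitate + IL-1β, or 34.5-fold, 6.69-fold and 42.0-fold. Among the 1591 tested genes that the annotation types as lncRNA, Gm16685 had the highest log2 fold change in each of these comparisons. Among all 16306 genes it ranked 40th, 28th and 41st. The next lncRNA in each was Gm31522, a gene of low level, at 3.39, 2.06 and 3.54. The difference between the palmitate effect with and without IL-1β was -2.46 on the log2 scale, which is also a description. For this difference 1.99% of all genes were called, and none of the 4 abundant RNAs was.

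Between the treated conditions, the edgeR quasi-likelihood test was applied, with p-values adjusted by Benjamini-Hochberg over all genes. The rise over BSA that chose Gm16685 was measured in these same treated libraries, so its p-values here are not independent of the choice. Gm16685 was higher in palmitate + IL-1β than in palmitate by 0.28 ± 0.06 on the log2 scale (adjusted p = 0.00124), a comparison in which 9.81% of all genes were called. The lowest library with both agents, at 43.3 CPM, stood above the highest with palmitate alone, at 39.6 CPM, a separation that 16.7% of all genes showed. Palmitate stood 2.37 above IL-1β on the log2 scale (SE 0.07, adjusted p = 3.09e-22 by edgeR), and palmitate + IL-1β stood 2.65 above IL-1β (SE 0.07, adjusted p = 1.17e-23 by edgeR). In these comparisons 31.6% and 35.0% of all genes were called. Leaving out each library in turn moved the difference between palmitate + IL-1β and palmitate between 0.25 and 0.31.

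**Figure D1:**
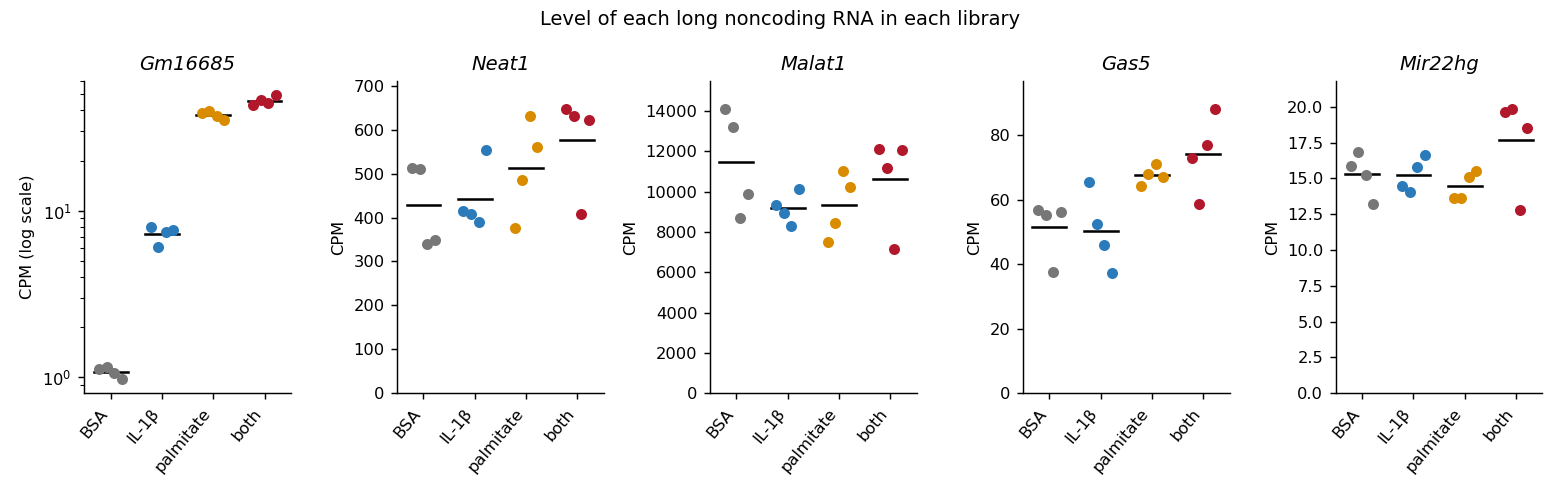
Level of each of the 5 RNAs in CPM (counts scaled to TMM-adjusted library sizes) for the 4 libraries of each condition, where "both" is palmitate + IL-1β and the black line is the mean. The axis for Gm16685 is logarithmic and its 4 conditions occupy separate ranges, while the other RNAs, on linear axes from 0, overlap between most conditions.

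The coding genes around Gm16685 did not rise with it. Il7, which it overlaps antisense, had 3.58, 4.04, 3.66 and 2.76 CPM in BSA, 3.23, 3.44, 2.91 and 4.31 CPM in IL-1β, 3.30, 3.22, 3.56 and 2.92 CPM in palmitate, and 2.72, 2.95, 2.77 and 3.17 CPM in palmitate + IL-1β. These ranges overlapped in every comparison with BSA. Its log2 fold change was -0.11 with palmitate (95% interval -0.39 to 0.16, adjusted p = 0.552 by edgeR's quasi-likelihood test, Benjamini-Hochberg adjusted), -0.03 with IL-1β (-0.31 to 0.25, adjusted p = 0.93) and -0.28 with both (SE 0.14, adjusted p = 0.0933). The name of the deposited table says that reads were counted by strand. The sources differ on the library kit, and whether the libraries kept strand was not tested, so over the exon bases that Gm16685 shares with Il7, and Gas5 with Zbtb37, reads of the pair may not be told apart. Of the 6 nearest protein-coding genes, 3 on each side, none was called higher against BSA.

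Several of these neighbours fell. Hey1, a transcriptional repressor downstream of Notch, fell by 1.22 ± 0.07 on the log2 scale with palmitate and by 1.24 ± 0.07 with palmitate + IL-1β, and stood at -0.07 with IL-1β (adjusted p = 4.2e-15, 2.23e-15 and 0.536 by edgeR). Pkia, an inhibitor of protein kinase A, fell by 0.72 with palmitate and by 0.75 with both. Zc2hc1a, a zinc finger gene, fell by 0.22, 0.19 and 0.31 with palmitate, IL-1β and both. Stmn2, a regulator of microtubules, fell by 0.55 with palmitate and was not called in the other comparisons with BSA, and Mrps28, a subunit of the mitochondrial ribosome, was called in none of them. In all, 4 of the 6 were called lower with palmitate, 1 with IL-1β and 3 with both, where 17.5%, 4.97% and 22.5% of all genes were called lower.

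**Figure D2:**
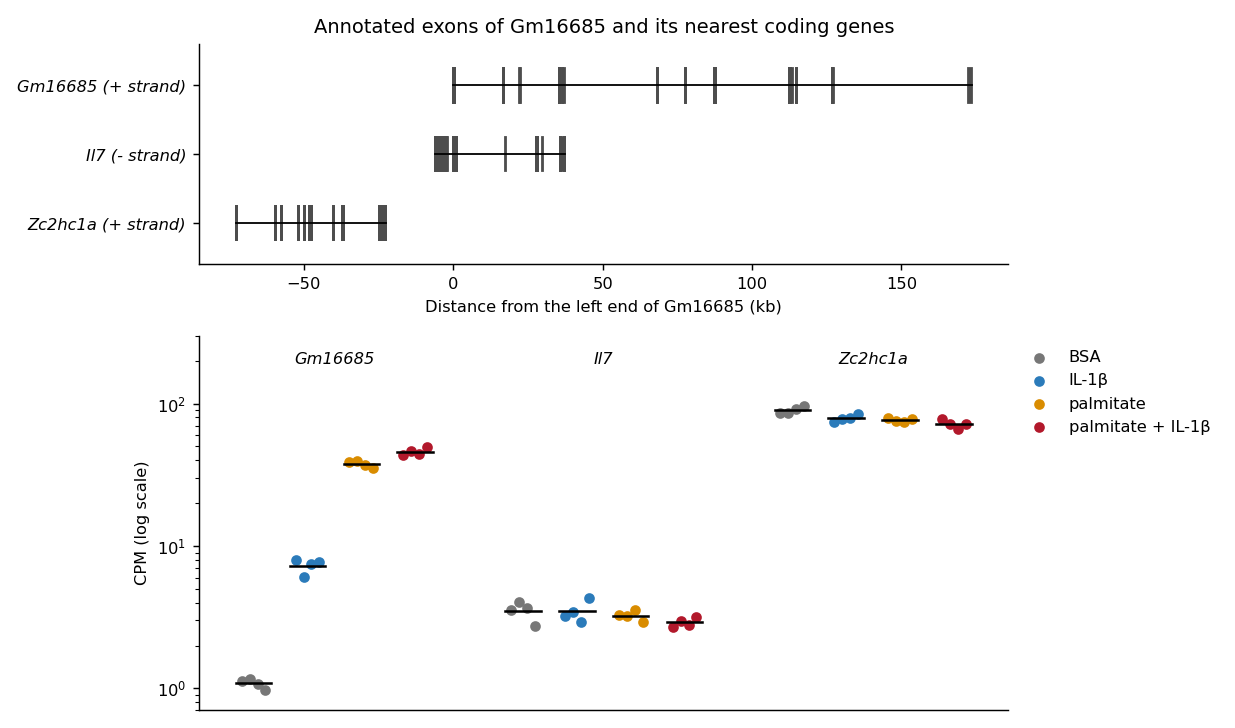
The upper panel shows the annotated exons (boxes) of Gm16685 and of the nearest coding genes by distance in kb from the left end of Gm16685, and the lower panel shows the CPM of the same genes (log scale) for the 4 libraries of each condition, with the mean as a line. Gm16685 rises from about 1.08 to 45.9 CPM across the conditions, while Il7 stays between 2.72 and 4.31 CPM and Zc2hc1a between 66.8 and 96.4 CPM.

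The genes whose pattern was most like that of Gm16685 were found by the smallest root mean square difference of log2 CPM over the 16 libraries, each gene centred on the mean of its 4 condition means. Over 16305 other tested genes these were Cxcl10 (0.34), Icosl (0.35), C3 (0.37), Cxcl1 (0.38), Tgtp1 (0.41) and Cxcl16 (0.44). Cxcl10, Cxcl1 and Cxcl16 are chemokines, C3 is the central complement component, Icosl is a costimulatory ligand for T cells and Tgtp1 is an interferon-induced GTPase. Cxcl10, the nearest, had mean levels of 1.94, 15.5, 54.6 and 67.4 CPM in BSA, IL-1β, palmitate and palmitate + IL-1β. Cxcl16 had 2.69, 7.86, 57.1 and 58.0 CPM. All 6 have the order of the 4 condition means of Gm16685, and the measure describes these 16 libraries only.

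The 14 genes listed as NF-kB feedback genes, which restrain or carry the signal of NF-kB, gave the inflammatory setting. All 14 were called higher with palmitate, 13 of 14 with IL-1β and 14 of 14 with both, at median log2 fold changes of 1.46, 0.91 and 1.76. Over all genes the median was 0.00 in each of these comparisons, and 19.8%, 10.1% and 24.8% were called higher. Nfkbia, the inhibitor that holds NF-kB in the cytoplasm, rose by 2.16, 1.48 and 2.39 on the log2 scale, and Zc3h12a, an RNase that degrades cytokine messages, rose by 2.86, 1.57 and 2.83.

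Neat1 was called in none of the comparisons. It had 512, 511, 339 and 349 CPM in BSA, 415, 408, 390 and 554 CPM in IL-1β, 375, 486, 632 and 560 CPM in palmitate, and 646, 632, 409 and 623 CPM in palmitate + IL-1β. The libraries of every condition overlapped those of BSA, and within BSA a pair of libraries stood well above the other pair. The log2 fold change was 0.26 with palmitate (95% interval -0.19 to 0.72, adjusted p = 0.37 by edgeR's quasi-likelihood test, Benjamini-Hochberg adjusted), 0.05 with IL-1β (-0.41 to 0.50, adjusted p = 0.92) and 0.43 with both (-0.02 to 0.89, adjusted p = 0.111). The upper end of the last interval is a fold of 1.85. Without palmitate + IL-1β replicate 15, the lowest library of its condition at 409 CPM, the difference with both was 0.57 and passed the test (adjusted p = 0.0383 by edgeR).

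Neat1 is 1 gene with a short and a long form that share their 5′ part, and counts per gene do not separate them. Of 15 proteins of the paraspeckle, which bind or process Neat1, 5 were called higher and 1 lower with palmitate, none with IL-1β, and 7 higher and 1 lower with both. Of all genes, 19.8% were called higher and 17.5% lower with palmitate, and 24.8% and 22.5% with both. The medians of the 15 were -0.05, -0.02 and 0.10 on the log2 scale. Tardbp, the RNA-binding protein TDP-43, rose by 0.38 with palmitate and 0.48 with both, and Taf15 rose by 0.50 and 0.60. Nono and Pspc1, core paraspeckle proteins, were at -0.05 and -0.10 with palmitate and were not called, while their partner Sfpq rose by 0.19.

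Malat1 was the most abundant of the 5 and was called in none of the comparisons either. Its CPM values were 14087, 13206, 8702 and 9874 in BSA, 9345, 8962, 8282 and 10145 in IL-1β, 7530, 8468, 11021 and 10260 in palmitate, and 12125, 11196, 7145 and 12058 in palmitate + IL-1β. The conditions overlapped, with BSA holding both the highest libraries and some near the lowest. The log2 fold change was -0.30 with palmitate (95% interval -0.72 to 0.12, adjusted p = 0.264 by edgeR), -0.32 with IL-1β (-0.74 to 0.10, adjusted p = 0.327) and -0.11 with both (-0.53 to 0.31, adjusted p = 0.683). Of 15 nuclear speckle proteins, the splicing factors found beside Malat1, 8 were called higher and none lower with palmitate. With both agents 8 were again higher and none lower, and with IL-1β 3 were higher and 1 lower, with median log2 fold changes of 0.17, 0.17 and 0.05. The shares of all genes called higher were 19.8%, 24.8% and 10.1% with palmitate, both and IL-1β. Srrm2, the scaffold of the speckle, rose by 0.33 with palmitate, 0.31 with IL-1β and 0.49 with both, and Rbm25 rose by 0.33 and 0.50 with palmitate and with both.

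Among the coding genes near the Neat1 and Malat1 pair, Frmd8, a partner of the iRhom proteins, rose by 0.17 with palmitate, and Slc25a45, a mitochondrial carrier, fell by 0.37 with palmitate and by 0.37 with both. Ltbp3, Znrd2 and Tigd3 were not called in any comparison with BSA.

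Gas5 stood higher in the conditions with palmitate. It had 56.8, 55.1, 37.7 and 56.3 CPM in BSA, 65.5, 52.5, 45.8 and 37.4 CPM in IL-1β, 64.1, 68.1, 70.9 and 67.2 CPM in palmitate, and 73, 58.8, 76.9 and 88.0 CPM in palmitate + IL-1β. All libraries with palmitate, alone or with IL-1β, lay above all BSA libraries, as 36.0% and 41.5% of all genes lay wholly to one side of BSA in these comparisons, while those with IL-1β alone spanned the BSA range. The log2 fold change was 0.52 ± 0.17 (SE) with palmitate + IL-1β against BSA (adjusted p = 0.0238 by edgeR's quasi-likelihood test, Benjamini-Hochberg adjusted) and 0.56 ± 0.17 against IL-1β (adjusted p = 0.0235). With palmitate against BSA it was 0.39 (95% interval 0.02 to 0.77, adjusted p = 0.0981), and with IL-1β it was -0.04 (-0.42 to 0.34, adjusted p = 0.919). The call with palmitate + IL-1β against BSA ended without BSA replicate 3 (0.40, adjusted p = 0.0642 by edgeR), the low BSA library at 37.7 CPM, and without palmitate + IL-1β replicate 15 or 16 (0.51 and 0.43, adjusted p = 0.0509 and 0.0723). It also ended with upper-quartile normalization, at 0.44 (adjusted p = 0.0529). The call against IL-1β ended without IL-1β replicate 7 or 8 or without palmitate + IL-1β replicate 15 or 16, at 0.45 to 0.54.

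**Figure D3:**
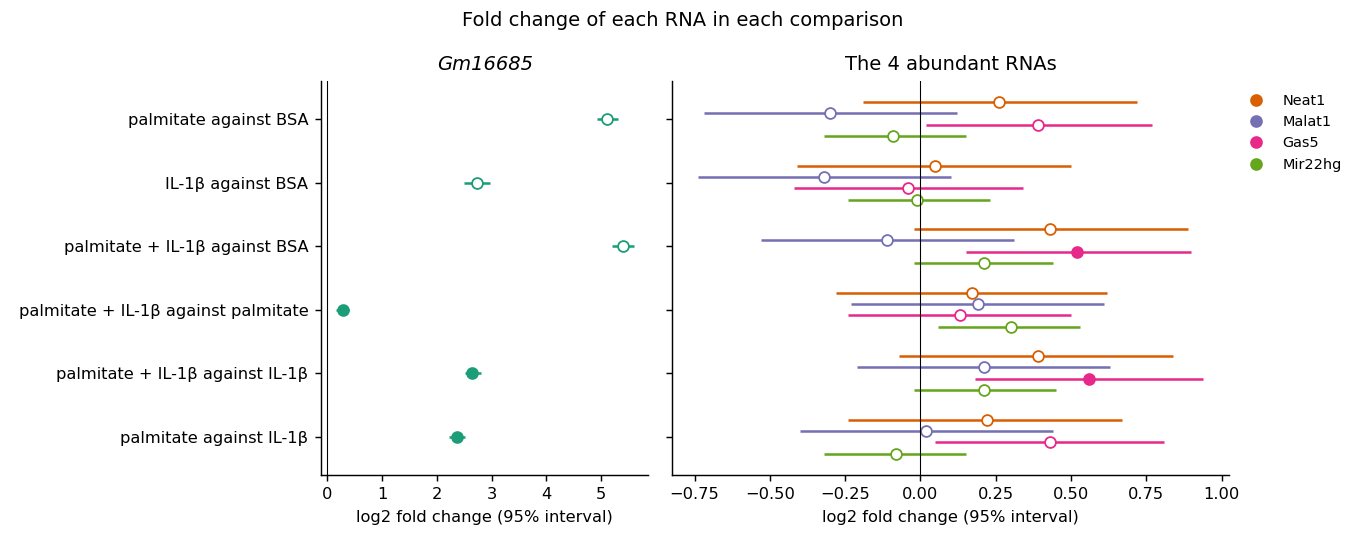
Fitted log2 fold change of Gm16685 (left) and of the 4 abundant RNAs (right, on a narrower axis) in the 6 comparisons between conditions, with 95% intervals. Filled points passed an adjusted p of 0.05 and open points did not, except that the comparisons of Gm16685 with BSA are open because they are a description, and Gas5 is the only one of the 4 with filled points, at 0.52 and 0.56. The filled points of Gm16685 come from libraries that also chose it, so they are not independent of that choice.

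The 6 genes nearest to Gas5 in pattern, by the same measure, were Upf3a (0.105), Pnn (0.109), Nudc (0.112), Nsrp1 (0.112), Uqcrb (0.113) and Cycs (0.121). Upf3a is a factor of nonsense-mediated decay, Pnn and Nsrp1 are nuclear speckle proteins, Nudc is a dynein-associated chaperone, and Uqcrb and Cycs belong to the mitochondrial respiratory chain. Upf3a had mean levels of 15.9, 15.8, 19.5 and 23.5 CPM in BSA, IL-1β, palmitate and both. Among the coding genes near Gas5, Rc3h1, the RNA-binding protein roquin, rose by 0.48, 0.33 and 0.57 on the log2 scale with palmitate, IL-1β and both.

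Spliced Gas5 carries premature stop codons and is removed by nonsense-mediated decay as it is translated, so the 14 listed factors of this pathway were set beside it. With palmitate 5 were called higher and 1 lower, with IL-1β 2 higher and none lower, and with both 8 higher and none lower, at medians of 0.13, 0.03 and 0.20 on the log2 scale. Of all genes 19.8%, 10.1% and 24.8% were called higher, so the count with IL-1β is near that of all genes. Upf1, the helicase of the pathway, rose by 0.12 with palmitate and by 0.20 with both. Smg1, the kinase that acts on Upf1, was at 0.37 with palmitate, not called, and rose by 0.72 with both. Smg6, an endonuclease of the pathway, fell by 0.14 with palmitate.

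The snoRNA host genes were examined as a group that includes Gas5. Of 19 listed hosts, 18 were tested, of which 5 were called higher and 1 lower with palmitate, 2 higher and none lower with IL-1β, and 11 higher and 1 lower with palmitate + IL-1β. Of all genes 19.8%, 10.1% and 24.8% were called higher, so the counts with palmitate and with IL-1β are near those of all genes. The call of Gas5 is 1 of the 11 with both. The medians of the hosts were 0.18, 0.14 and 0.51 on the log2 scale. Snhg1, the host of several snoRNAs, had 31.4, 27.3, 26.9 and 29.9 CPM in BSA, 39.2, 42.5, 39.8 and 38.2 CPM in IL-1β, 38.5, 37.5, 33.6 and 36.9 CPM in palmitate, and 51.2, 52.6, 51.0 and 48.8 CPM in palmitate + IL-1β. Each treated condition lay above BSA, where 17.6% of all genes were separated from BSA with IL-1β, and the condition with both agents lay above the other three. Snhg1 rose by 0.34, 0.47 and 0.82 on the log2 scale with palmitate, IL-1β and both. Snhg15 and Snhg17 rose by 0.95 and 0.77 with both agents, and Snhg18 fell by 0.32. Between palmitate + IL-1β and palmitate, 5 of the 18 hosts were called higher, against 5.71% of all genes, and none lower, and Gas5 was not among them (0.13, adjusted p = 0.727 by edgeR). Leaving out 1 library at a time gave 9 to 12 rises with both agents against BSA, and upper-quartile normalization gave 9 rises and 1 fall.

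Many snoRNA hosts belong to the 5′ terminal oligopyrimidine (TOP) genes, whose RNA begins in a run of C and T that ties its translation and stability to growth signals. Starts were looked up in the RefSeq table for GRCm38.p6, which held 16 of the 19 hosts, after the values had been seen. In 6 of the 16, an annotated start lay inside a C/T run of at least 5 bases, as in 11.8% of all 27025 genes of the table. Counted by start, it was 6 of 18 for the hosts and 10.1% of all 32851. Gas5 and Snhg17 have a run at the second of their starts and none at the first. These windows of 45 bases, with 20 before the start, are printed because they show a feature that the level of the RNA did not choose, and the run is in capitals.
Gas5, second start: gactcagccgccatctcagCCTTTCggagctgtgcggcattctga
Snhg7: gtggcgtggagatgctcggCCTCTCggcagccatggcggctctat
Snhg8: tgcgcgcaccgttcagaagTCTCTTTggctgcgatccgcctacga
Snhg12: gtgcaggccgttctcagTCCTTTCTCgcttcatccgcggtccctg
Snhg17, second start: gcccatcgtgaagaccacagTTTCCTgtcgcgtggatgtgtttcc
Snhg18: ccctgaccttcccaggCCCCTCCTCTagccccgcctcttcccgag
Of these 6, Gas5, Snhg7, Snhg8, Snhg12 and Snhg17 were called higher with palmitate + IL-1β, and Snhg18 was called lower. Of all 18 tested hosts, with or without a run, 11 were called higher, as were 24.8% of all genes. Whether the run goes with the rise was not tested. The run of Snhg18 is the longest, at 10 bases, when bases before the start are counted with those after it. Snhg1, Snhg15 and Snhg16, which also rose, had a shorter run or none at the listed start.

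Mir22hg, the host of miR-22, was called in none of the comparisons. Its average log2 CPM was 3.98, against a median of -0.21 for tested genes typed as lncRNA and 3.53 for all genes. It had 15.9, 16.9, 15.2 and 13.2 CPM in BSA, 14.5, 14.0, 15.8 and 16.7 CPM in IL-1β, 13.7, 13.6, 15.1 and 15.5 CPM in palmitate, and 19.6, 19.8, 12.8 and 18.5 CPM in palmitate + IL-1β. With both agents 3 of 4 libraries lay above every other library of the study and 1 lay below them all. The log2 fold change was -0.09 with palmitate (95% interval -0.32 to 0.15, adjusted p = 0.585 by edgeR), -0.01 with IL-1β (-0.24 to 0.23, adjusted p = 0.984) and 0.21 with both (-0.02 to 0.44, adjusted p = 0.133). The low library decides this result. Without palmitate + IL-1β replicate 15 the difference with both was 0.34 against BSA (adjusted p = 0.000662), 0.43 against palmitate (adjusted p = 0.000343) and 0.34 against IL-1β (adjusted p = 0.000959), all by edgeR.

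The listed hosts of microRNAs include Mir22hg. Of 12, 9 were tested, of which 1 was called higher and 5 lower with palmitate, none higher and 2 lower with IL-1β, and 2 higher and 4 lower with both. Of all genes 19.8%, 10.1% and 24.8% were called higher and 17.5%, 4.97% and 22.5% lower. Dnm3os, the host of miR-199a and miR-214, had a mean of 182 ± 29.2 CPM in BSA and of 87.2 ± 11.3 CPM in palmitate (SD, n = 4), and fell by 1.06 with palmitate and by 1.29 with both on the log2 scale. Mir100hg fell by 0.73, 0.51 and 1.09 with palmitate, IL-1β and both, and Mirg fell by 0.71, 0.71 and 0.98. Mir17hg, the host of the miR-17 to miR-92 cluster, rose by 0.59 with palmitate and by 1.03 with both. Mir155hg, the host of the inflammatory miR-155, rose by 1.3 with both, from 0.224 ± 0.131 to 0.552 ± 0.18 CPM (SD, n = 4), or 4 to 13 and 12 to 29 counts per library.

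The 4 abundant RNAs varied more between libraries of a condition than Gm16685 did. The pooled SD of log2 CPM within conditions was 0.30 for Neat1, 0.28 for Malat1, 0.25 for Gas5, 0.18 for Mir22hg and 0.12 for Gm16685. Over the 9013 tested genes with a mean log2 CPM of at least 3 its median was 0.08, and these 5 values stood at the 99.6th, 99.5th, 99.2nd, 97th and 81.7th percentile. The lowest library held 155011 counts of Malat1, 7724 of Neat1, 902 of Gas5 and 281 of Mir22hg. Malat1 and Neat1 lay on the same side of their condition mean in 15 of 16 libraries, and Neat1 and Mir22hg also in 15 of 16. Gas5 shared its side with Neat1 in 7 and with Malat1 in 8 of the 16. In palmitate + IL-1β replicate 15 the deviations were -0.54 for Malat1, -0.47 for Neat1 and -0.45 for Mir22hg, against 0.07 for Gas5 and -0.04 for Gm16685. The part of RNA quality and of library preparation in this spread was not tested.

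**Figure D4:**
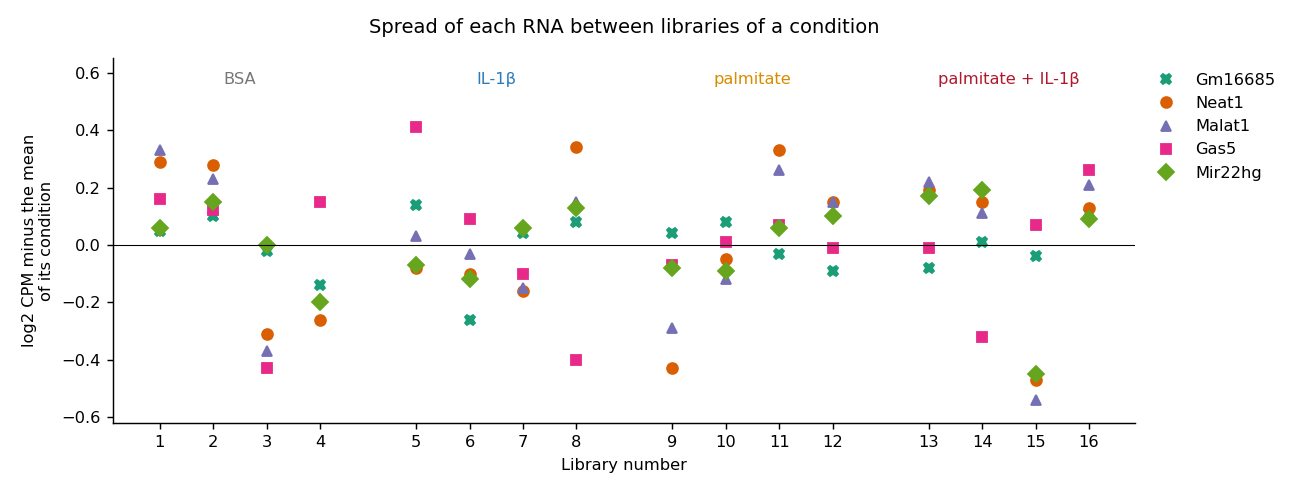
Deviation of each of the 5 RNAs from the mean of its condition, in log2 CPM, for libraries 1 to 16 grouped by condition. Malat1 and Neat1 move together, both high in BSA 1 and 2 and low in palmitate 9 and palmitate + IL-1β 15, where Malat1 reaches -0.54, while Gm16685 stays between -0.26 and 0.14.

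Levels between genes were compared per length, as CPM per kb of exon in the vM39 models, which differ in version from the vM33 models counted for all but Mir22hg. On that scale the mean level in BSA was 1450 for Malat1, 19.1 for Neat1, 12.2 for Gas5, 7.95 for Mir22hg and 0.196 for Gm16685. In palmitate + IL-1β it was 1350, 25.8, 17.5, 9.19 and 8.31 CPM per kb, so that Gm16685 came from far below Mir22hg to near its level. On that scale the order of the 5 did not change, but this order rests on the length used. The exons of Gm16685 join 18 transcripts (5521 bases), while its lowest-numbered transcript has 1593 bases. In CPM without length, Gm16685 stood below Mir22hg in BSA (1.08 against 15.3) and above it in palmitate + IL-1β (45.9 against 17.7).

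A list of 65 long noncoding RNAs with known roles, the 5 included, was examined, of which 63 were in the table and 50 were tested. Gm16685 is 1 of the 50 and is left out of the counts that follow. Of the other 49, with the 4 abundant RNAs among them, 11 were called higher and 14 lower with palmitate, 4 higher and 2 lower with IL-1β, and 19 higher and 11 lower with palmitate + IL-1β. That is against 37.3%, 15.1% and 47.3% of all genes called in either direction. The median log2 fold changes of the 49 were 0.06, 0.00 and 0.15. With upper-quartile normalization the counts were 10 and 15, 3 and 4, and 16 and 11. The nuclear and chromatin group had no rise in any comparison with BSA among its 11 tested genes, with 4 falls with palmitate (Rian, Firre, Ftx and Chaserr), none with IL-1β and 2 with both (Rian and Firre). Neat1 and Malat1 are 2 of the 11. Of all genes 17.5%, 4.97% and 22.5% were called lower and 19.8%, 10.1% and 24.8% higher.

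The inflammation group held the largest rises of the list with palmitate and with both, after Gm16685. Of its 7 other tested genes, Neat1 and Malat1 included, 3 were called higher and 1 lower with palmitate, none with IL-1β, and 4 higher and 1 lower with both, against 19.8% and 17.5% of all genes with palmitate and 24.8% and 22.5% with both. Morrbid, which restrains the death gene Bcl2l11 in myeloid cells, rose by 1.14 with palmitate, from 5.53 ± 0.711 to 12.2 ± 0.736 CPM (SD, n = 4). Bcl2l11, 15.7 kb away, fell by 0.72 (adjusted p = 6.2e-14 by edgeR) in that comparison. Ptgs2os, antisense to the cyclooxygenase gene Ptgs2, rose by 1.25 with both while Ptgs2 rose by 1.67. Whether the libraries kept strand was not tested, so reads over any bases that this pair shares may not be told apart. Ttc39aos1, which lies beside Ttc39a on the opposite strand, fell by 1.32 with palmitate. Of 8 tested RNAs of stress, p53 and growth, 2 were called higher and 3 lower with palmitate, 2 higher and none lower with IL-1β, and 3 higher and 3 lower with both. The same shares of all genes hold here, with 10.1% called higher and 4.97% lower with IL-1β, and 2 of 8 higher with palmitate is near 19.8%. Pvt1, the neighbour of Myc, rose by 0.45, 0.29 and 0.64 with palmitate, IL-1β and both, Dubr rose by 0.61, 0.18 and 0.75, and Crnde fell by 1.11 with palmitate and 1.04 with both. Snhg8 rose by 0.94 with palmitate, and Snhg16 rose by 0.39 with IL-1β.

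**Figure D5:**
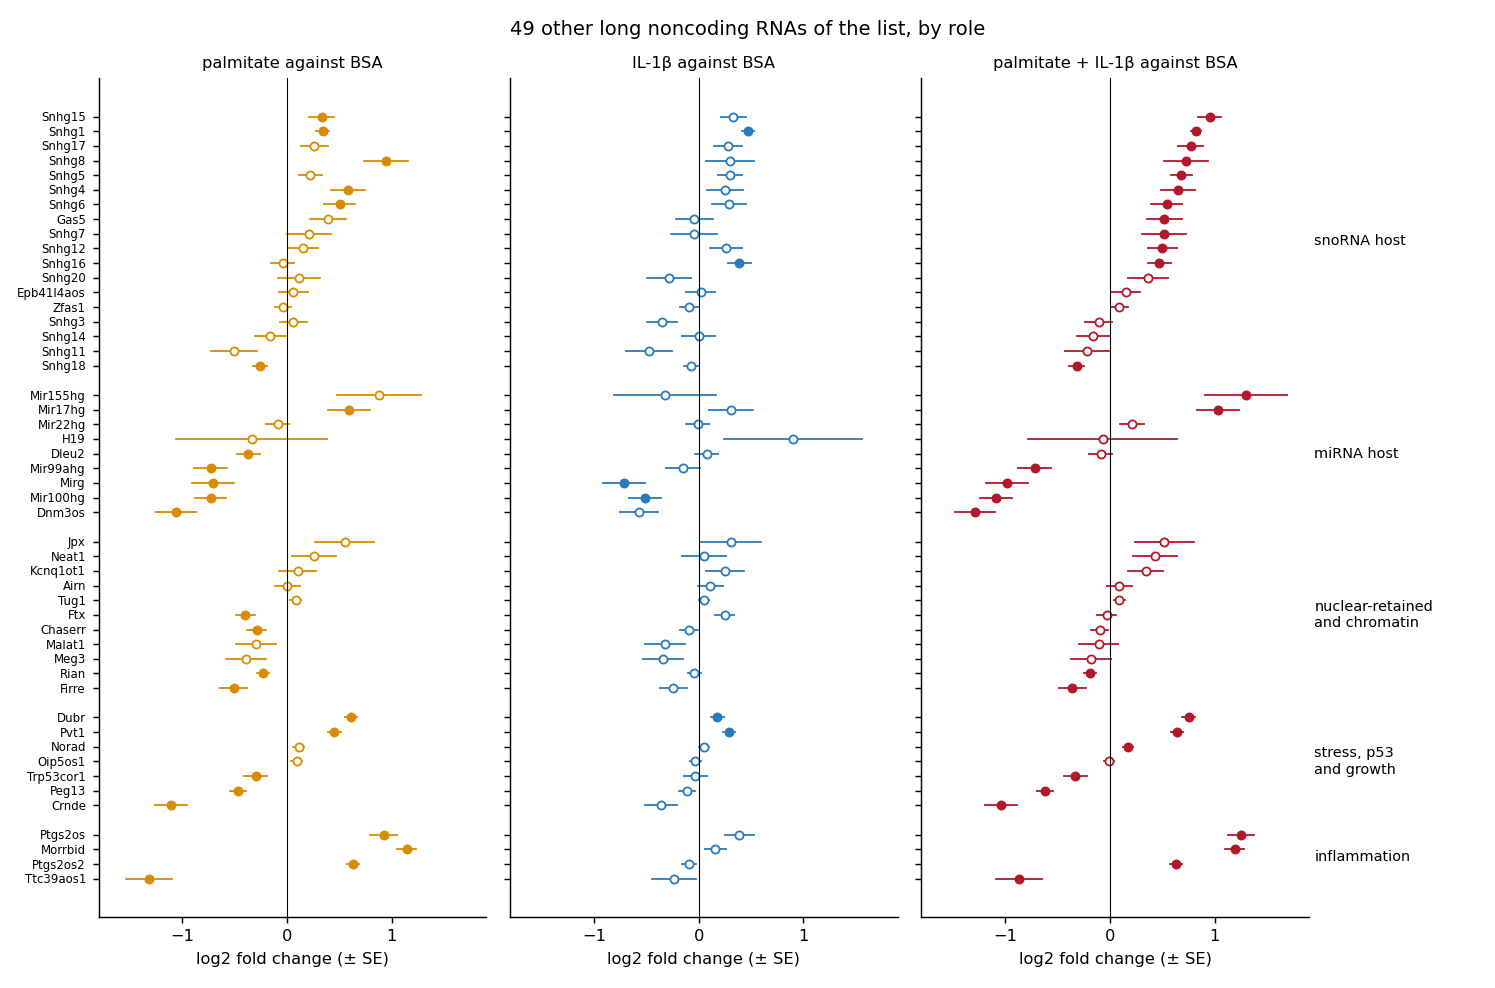
Fitted log2 fold change (± SE) against BSA of the 49 tested long noncoding RNAs of the list other than Gm16685, grouped by role, in palmitate, IL-1β and palmitate + IL-1β. Filled points passed an adjusted p of 0.05, and with both agents 11 of 18 snoRNA hosts are filled to the right of 0 and 1 to the left.

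Among all 1591 tested genes typed as lncRNA, 298 (18.7%) were called with palmitate, 67 (4.21%) with IL-1β and 463 (29.1%) with both. These genes were low, with a median average log2 CPM of -0.21 against 3.53 for all genes. Of the 416 with an average log2 CPM of at least 1, the calls came to 33.4%, 8.89% and 45.9%, and for protein-coding genes at that level to 45.7%, 20.5% and 56.7%. The largest rises at that level with separated libraries, after Gm16685, were Gm15987 (2.88) and Gm17173 (2.45) with palmitate, Gm20658 (1.75) and G930009F23Rik (1.2) with IL-1β, and Gm20658 (3.10) and Gm17173 (3.04) with both, on the log2 scale. Gm20658 overlaps Vipr2, the receptor of vasoactive intestinal peptide, which rose by 1.21 with IL-1β and by 1.09 with both, and Gm17173 overlaps Ptger2, a prostaglandin E2 receptor, which rose by 1.55 with palmitate and by 1.94 with both. Both pairs lie on opposite strands. Whether the libraries kept strand was not tested, so reads over any shared bases may not be told apart.

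The largest falls at the same level, also with separated libraries, were Gm43672 (-1.23), 9130024F11Rik (-1.2) and Crnde (-1.11) with palmitate, and Gm30639 (-1.59), CJ186046Rik (-1.36) and Prss23os (-1.3) with both. With IL-1β they were Mirg (-0.71), C430049B03Rik (-0.57) and B830012L14Rik (-0.56). CJ186046Rik lies 5.0 kb from Six2, a homeobox gene, which fell by 0.89 with both. Gm30639 was the least even of these, with 1.82 to 7.74 CPM across the BSA libraries.

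Promoter windows from 250 bases before to 50 after the start (RefSeq, GRCm38.p6) were at hand for Malat1, Gas5 and Mir22hg. A degenerate NF-kB pattern, read on both strands, occurred 8 times and 1 time in the windows of Gas5, 1 time in that of Mir22hg and not in that of Malat1, and 50.8% of all 32851 windows held it. The stricter NF-kB consensus site, the AP-1 pattern TGANTCA and the C/EBP pattern TTGCNNAA, held by 0.155%, 7.81% and 10.8% of all windows, were in none of the 4 windows of these genes. A match is a description of letters, and no match says only that these letters are not in these windows.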

How the data were processed

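Reads were trimmed (Trimmomatic 0.39), aligned to GRCm39 (STAR 2.7.10a) and counted on GENCODE vM33 genes by the authors, with HTSeq 2.0.9. The submitters' processing notes list the same versions. The deposited values are raw counts for 56941 genes, of which 38131 had a count. HTSeq's summary rows, 18.3 to 21.4% of a library, name no gene and stayed out of library sizes. Conditions came from the labels, and each of the 16 columns matched 1 library name.

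Counts were tested with edgeR 4.0.16 (R 4.3.3, limma 3.58.1) in 1 robust quasi-likelihood fit of 16 libraries, with TMM factors of 0.97 to 1.04 and filterByExpr (minimum count 10, minimum total 15). A gene was called at a Benjamini-Hochberg adjusted p under 0.05 over 16306 genes. Log2 CPM used a prior count of 2. DESeq2, the authors' tool, was an alternative (1.42.0 here), and the others changed the size factors, the filter, the genes or the groups in the fit, or left out 1 library. The script was tested on simulated data. Pairs of libraries of a condition differed by more than sampling noise (chi-square per degree of freedom 2.53 to 17.6), so none was counted as a duplicate.

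Positions and exon lengths are from GENCODE vM39 (GRCm39), which held 56323 of the gene IDs. The genes named are the 5 RNAs, the 3 largest rises and falls against BSA among the list and among annotated lncRNAs (for the latter at an average log2 CPM of at least 1 with separated libraries), the 3 nearest tested coding genes on each side, the 6 genes of most similar pattern, and examples from the lists. The 5 RNAs and the lists were chosen with earlier results of these data known. Some neighbouring genes are not reported here.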

Additional observations from a re-analysis of the deposited data

Results flagged for a closer look

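In 132 sets of 4 libraries (the 5 RNAs, the named lncRNAs and the coding genes around Gm16685, in each condition), a library was far from the other 3 in 8, by Dixon's ratio at its 95% value, and chance alone flags about 1 in 20. Neat1 was flagged high in IL-1β replicate 8, at 554 CPM against 390 to 415, and low in palmitate + IL-1β replicate 15, at 409 CPM against 623 to 646. Gas5 was flagged low in BSA replicate 3, at 37.7 CPM against 55.1 to 56.8. The others were CJ186046Rik in BSA replicate 2 (19.8 CPM against 16.4 to 16.9), Mir155hg in BSA replicate 2 (0.42 CPM against 0.148 to 0.175) and in palmitate + IL-1β replicate 13 (0.822 CPM against 0.442 to 0.482), Pkia in BSA replicate 3 (12.7 CPM against 11.2 to 11.4) and Prss23os in palmitate + IL-1β replicate 16 (1.25 CPM against 2.12 to 2.25).

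The palmitate effect differed with the presence of IL-1β, by the interaction term of edgeR's quasi-likelihood test, Benjamini-Hochberg adjusted, for 2 of 83 genes looked at. G930009F23Rik rose by 2.35 on the log2 scale with palmitate in the absence of IL-1β and by 1.05 in its presence, a difference of -1.3. For Gm20658 these were 1.96 and 1.35, a difference of -0.61. Both genes were named for their rise over BSA, with IL-1β among other comparisons, in these same libraries. The interaction term uses those libraries again, so these calls are not independent of that choice and the differences are a description. Over all genes 1.99% were called for the interaction. The 14 NF-kB feedback genes were examined separately, and 11 of them were called lower and none higher for it, at a median of -0.65. Gm16685, given above as a description, stood at -2.46.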

How the results depend on the processing

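No paired analysis was possible because the labels number the libraries 1 to 16, so that no condition shares a number with another. Of 1169 values recomputed under the alternatives, 1129 kept their direction and their side of the threshold, or stayed within the allowed spread. The 12 calls that were lost were all of Gas5. In palmitate + IL-1β against BSA its call ended with upper-quartile normalization (0.44), no expression filter (0.49) and only the groups compared (0.51), and against IL-1β with no filter (0.54) and only the groups compared (0.55). In palmitate against BSA it was called with only the groups compared (0.38), and in palmitate against IL-1β with DESeq2 (0.42). Mir22hg in palmitate + IL-1β against palmitate was called with no filter (0.28). Neat1 with IL-1β came to 0.00 with upper-quartile normalization. The 49 listed RNAs gave 10 calls in place of 6 with DESeq2 in IL-1β against BSA, and 11 in place of 7 with only the groups compared in palmitate + IL-1β against palmitate. The cause was not tested.

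Leaving out each library gave these ranges. With IL-1β against BSA, the log2 fold change was -0.19 to 0.08 for Gas5, -0.07 to 0.04 for Mir22hg and -0.08 to 0.14 for Neat1, so that each took both signs. The reversed values were 0.01 (Gas5, without BSA replicate 1 or 4 or IL-1β replicate 7) and 0.08 (without IL-1β replicate 8), 0.01, 0.04, 0.02 and 0.03 (Mir22hg, without BSA replicate 1 or 2 or IL-1β replicate 5 or 6), and -0.05, -0.04 and -0.08 (Neat1, without BSA replicate 3 or 4 or IL-1β replicate 8). Malat1 ran from -0.22 to 0.04 with both agents against BSA, where 0.04 was without palmitate + IL-1β replicate 15, and from -0.07 to 0.11 in palmitate against IL-1β, with -0.03, -0.07 and -0.03 without IL-1β replicate 7 and palmitate replicates 11 and 12. With both agents, Gas5 ran from 0.40 to 0.61 against BSA and from 0.45 to 0.71 against IL-1β, Neat1 from 0.34 to 0.57 against BSA, and Mir22hg from 0.14 to 0.34 against BSA, 0.23 to 0.43 against palmitate and 0.15 to 0.34 against IL-1β. Gas5 in palmitate against IL-1β ran from 0.31 to 0.58, called without IL-1β replicate 5. For the interaction, Mir22hg ran from 0.24 to 0.43 and the list from 0 to 1 calls. Depth limits Mir155hg and the other RNAs under 1 CPM, and the spread between libraries limits the 4 abundant RNAs, whose 95% intervals in the 6 comparisons between conditions reach folds of 0.597 to 1.92.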

Other observations

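The ratio of Neat1 to Malat1 within a library was formed after the values had been seen. Per 100 counts of Malat1, Neat1 had 3.64, 3.87, 3.90 and 3.54 counts in BSA, 4.44, 4.56, 4.71 and 5.46 in IL-1β, 4.98, 5.74, 5.73 and 5.45 in palmitate, and 5.33, 5.64, 5.73 and 5.17 in palmitate + IL-1β. Every treated library lay above every BSA library, and the ratio was 1.28-fold, 1.47-fold and 1.46-fold that of BSA with IL-1β, palmitate and both (exact two-sided permutation p = 0.0286 each, the smallest that 4 against 4 allow, and 0.214 after Benjamini-Hochberg adjustment over the 30 ratio comparisons made, so none passed). Of all tested genes divided by Malat1 in the same way, 9.44%, 12.2% and 9.07% lay wholly above BSA. The ratios with palmitate + IL-1β and with palmitate overlapped (0.998-fold, exact permutation p = 0.943). A ratio shows unequal change of the pair and not which of them moved. Gas5 per 100 counts of Malat1 lay wholly above BSA with palmitate (1.62-fold) and overlapped it with IL-1β and with both, and Mir22hg overlapped BSA in all 3 comparisons.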
